A study of Rattus norvegicus with 8 samples.

Results

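The genes described here are 8 genes of the B cell lineage, Cr2, Cd79a, Cd79b, Ms4a1, Pax5, Cd22, Blk and Fcer2. They were chosen by name, as well-known B cell genes. A probe was matched for 6 of the 8 through the RefSeq transcript that the array names, and all 6 passed the filter on dim probes and were tested among 19899 genes (30367 probes); Cd79a and Ms4a1 had no matched probe and were not analysed here. Each of the 6 genes was read by 1 probe.

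The samples were pieces of 5 mm from the middle colon of 16 female Wistar rats, labelled as 6 weeks old, with 4 rats per diet. The REF group received a reference chow, the C10 group the same kind of chow with 10 % cocoa, the CF group a chow with cocoa fiber powder and the I group a chow with inulin, a soluble fiber; per the study's methods, the diets lasted 3 weeks, and C10, CF and I supplied the same amount of soluble fiber. The question of the study was which colonic genes respond to cocoa and whether its fiber accounts for the response. Each of 8 two-colour Agilent arrays took 2 rats of different diets, 1 labelled with Cy5 and 1 with Cy3, and the labels give a code and a diet for each dye of each array. All 16 codes differ, and each was taken as 1 rat measured once, in 1 dye; the study's methods describe dye swaps for each sample, which these labels do not show, so that the number of independent rats rests on the codes. Arrays and the rats of a diet are numbered here in the order of the labels. Arrays 1 to 4 held all C10 rats and arrays 5 to 8 all I rats, and the REF and CF rats were divided between these sets.

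B cells carry an antigen receptor made of a membrane immunoglobulin and of the signalling pair encoded by Cd79a and Cd79b. Receptor signals pass through kinases of the Src family such as Blk, and are strengthened by the complement receptor encoded by Cr2 and restrained by the lectin Cd22. Pax5 is the transcription factor that keeps the B cell identity, Ms4a1 encodes CD20, and Fcer2 encodes CD23, a receptor for immunoglobulin E. In the colon, B cells lie mostly in lymphoid follicles, in contact with T cells and with stromal cells that secrete chemokines, whereas the plasma cells that secrete immunoglobulin A lie scattered in the lamina propria and have switched off much of the B cell program.

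Values are normalized log2 signals, from which a difference of 1 is a 2-fold change. The lowest log2 signal that was well above background lay between 5.82 and 6.21 in each rat, 68.6 to 83.9 % of the spots were well above background, and 0 spots were saturated. A library stood apart from the others. C10 rat 1, on array 1, had a mean log2 signal of 12.13 over 6 smooth muscle genes, against 13.85 to 15.01 in the other rats, and was among the highest rats for most genes described here. Colonic epithelium markers were high in all rats (list mean 13.51 to 14.40). Because whole tissue was measured, fewer cells of a type and less RNA per cell cannot be told apart.

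Of the 6 genes, 5 (Cr2, Cd79b, Cd22, Blk and Fcer2) varied together from rat to rat, over a wide range, in a pattern that did not follow the diets, and Pax5 did not share this pattern. For these 5 genes both rats of arrays 3, 5 and 7 and C10 rat 1 of array 1 had the 7 highest signals, and the rats of arrays 2, 4, 6 and 8 and REF rat 1 of array 1 had low signals. Between diets, 0 of the 6 genes passed the test in any of the 6 comparisons.

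Promoters of Cr2 and Cd22 are shown because both genes followed this shared pattern; a promoter was on hand in the RefSeq tables used here for only these 2 of the 6 genes tested. The letters are the 250 bases upstream of the annotated start, from RefSeq on the GRCr8 build, at chr13:109244507-109244756 for Cr2 and chr1:95259731-95259980 for Cd22, both on the minus strand and written 5′ to 3′ along the gene. Capitals mark the motifs found.
Cr2: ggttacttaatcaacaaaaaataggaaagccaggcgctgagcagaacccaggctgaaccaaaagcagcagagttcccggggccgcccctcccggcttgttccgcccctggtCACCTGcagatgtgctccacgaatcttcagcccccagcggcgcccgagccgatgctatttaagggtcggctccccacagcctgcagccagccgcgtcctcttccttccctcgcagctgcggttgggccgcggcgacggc
Cd22: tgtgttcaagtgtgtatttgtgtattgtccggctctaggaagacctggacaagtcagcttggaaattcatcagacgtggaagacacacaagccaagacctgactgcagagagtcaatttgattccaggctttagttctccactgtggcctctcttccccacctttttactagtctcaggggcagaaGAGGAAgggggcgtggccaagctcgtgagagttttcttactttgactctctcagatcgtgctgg

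Motifs known from B cell promoters were searched on both strands in these windows. The octamer ATTTGCAT, present in 1.56 % of 33469 rat promoters of this length, and the EBF core CCCNNGGG, present in 10.8 %, were in neither. The E box CAGGTG, present in 15.9 % of promoters, was found in Cr2 on the opposite strand at bases -139 to -134 from the start. The PU box GAGGAA, present in 23.3 %, was found in Cd22 at bases -64 to -59. These matches are descriptions of letters, and no binding was measured in these samples.

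Cd79b, the signalling chain of the B cell receptor, was well above background in 16 of 16 rats. Its log2 signals were 7.99, 7.10, 11.41 and 7.38 in REF rats 1 to 4, 11.53, 6.73, 10.11 and 7.001 in C10 rats, 9.73, 7.12, 11.89 and 7.22 in CF rats, and 11.67, 7.10, 10.76 and 7.46 in I rats. All diets thus held both high and low rats, and every pair of diets overlapped. The values left a gap of 1.74 between 7.99 and 9.73, with 7 rats above and 9 below it. Above the gap were 1 REF rat, 2 C10 rats, 2 CF rats and 2 I rats. The SD within a diet was 2.24, and 0.0452 % of all genes tested had a larger one.

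Cr2, the complement receptor of B cells and of follicular dendritic cells, was well above background in 10 of 16 rats. Its log2 signals were 6.89, 6.09, 9.22 and 6.30 in REF rats 1 to 4, 9.56, 6.01, 8.07 and 6.38 in C10, 7.85, 6.03, 9.78 and 6.23 in CF, and 9.67, 6.08, 8.99 and 6.37 in I. The 7 rats with the highest Cd79b also had the highest Cr2, and the other 9 rats lay at 6.01 to 6.89, 3 of them well above background. The SD within a diet was 1.66.

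Cd22, the inhibitory coreceptor, was well above background in 11 of 16 rats. Its log2 signals were 6.61, 6.20, 7.56 and 6.23 in REF, 7.63, 6.06, 6.66 and 6.29 in C10, 6.71, 6.39, 7.93 and 6.34 in CF, and 7.85, 6.10, 7.36 and 6.20 in I. High rats were again those of Cd79b (7 of 7), but on array 3 its values were only slightly above those of the low rats. This closeness depended on the background correction. With the scanner software's processed signals, the array 3 values were 5.195 (CF rat 1) and 5.05 (C10 rat 3), against 1.17 to 3.77 in the low rats.

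Blk, the Src-family kinase, was well above background in 13 of 16 rats. Its log2 signals were 6.54, 6.48, 7.82 and 6.32 in REF, 7.45, 6.32, 6.80 and 6.17 in C10, 6.75, 6.37, 8.12 and 6.36 in CF, and 8.03, 6.29, 7.58 and 6.50 in I. In each diet the highest Blk signal came from a rat of array 1, 5 or 7, and the same 7 rats as for Cd79b led the order.

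Fcer2, the CD23 receptor of mature B cells, was well above background in 12 of 16 rats. Its log2 signals were 6.54, 6.39, 7.19 and 6.29 in REF, 7.44, 6.45, 6.61 and 6.43 in C10, 6.67, 6.39, 7.36 and 6.28 in CF, and 7.54, 6.19, 7.02 and 6.31 in I. It had the same 7 leading rats, with a range of 1.35 from the lowest to the highest. For this dim gene the range depended on the background correction, being 2.68 without the offset and 3.83 with the scanner software's processed signals. For Cd79b the 3 settings gave 5.16, 6.20 and 6.74. They gave 3.77, 6.23 and 8.21 for Cr2, 1.88, 3.75 and 6.31 for Cd22, and 1.95, 3.37 and 4.745 for Blk.

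Pax5, the identity factor, was well above background in 16 of 16 rats but varied little. Its log2 signals were 8.39, 8.45, 8.09 and 8.23 in REF, 8.53, 8.49, 8.46 and 8.46 in C10, 8.53, 8.46, 8.28 and 8.22 in CF, and 8.22, 8.29, 8.29 and 8.19 in I. Pax5 was read by a single spot per array, and 3 of its 7 highest rats were among those of Cd79b. Its 8 values on arrays 1 to 4 were 8.39 to 8.53, and those on arrays 5 to 8 were 8.09 to 8.29, so that the sets of arrays did not overlap. The REF and CF rats, which lay on both sets, showed this split within their own diet.

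**Figure D1:**
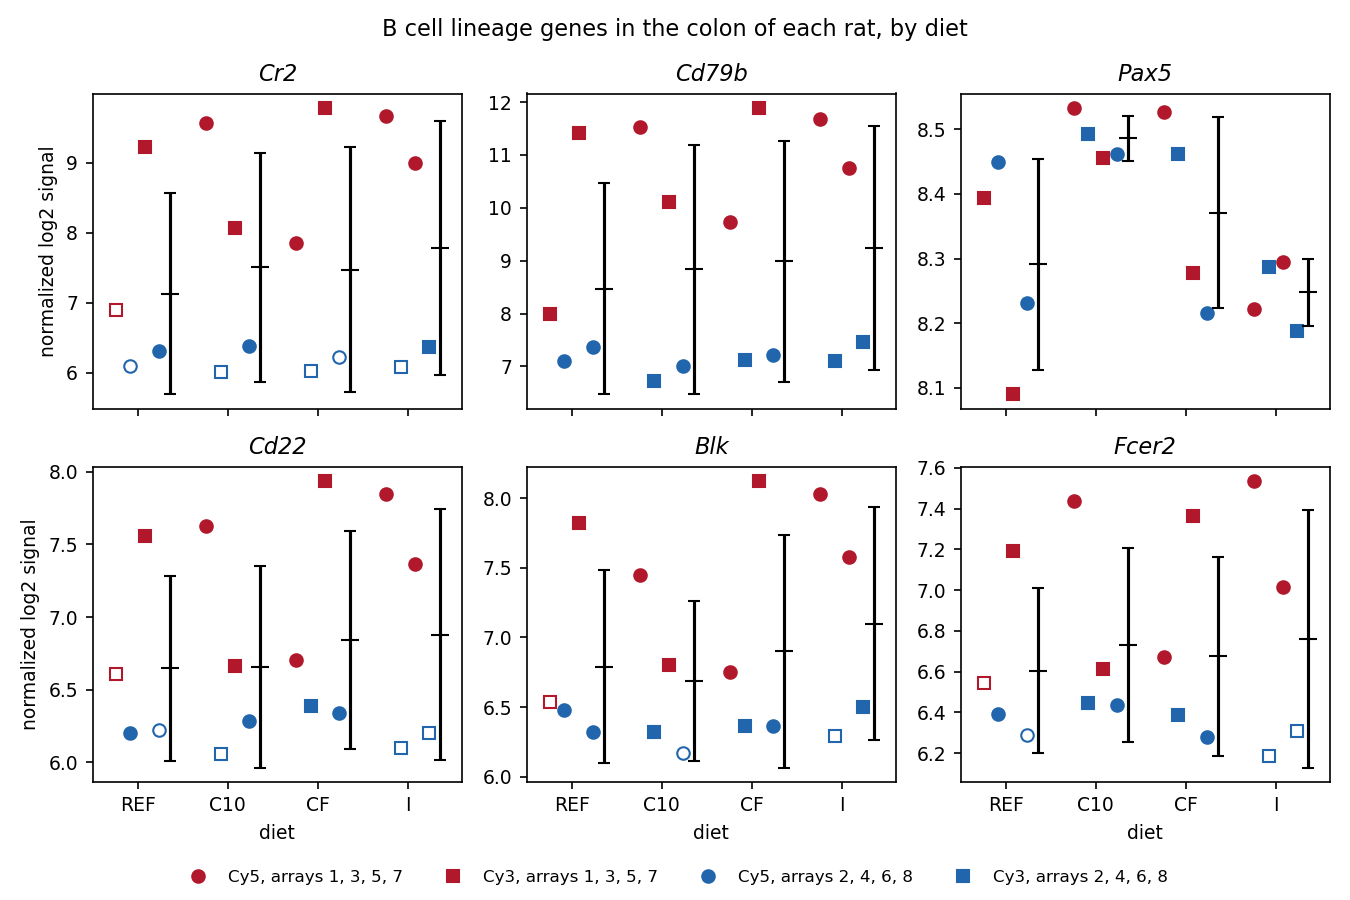
Normalized log2 signal (y axis, a separate scale per gene) of 6 B cell lineage genes in each of 4 rats per diet (x axis); circles are Cy5 and squares Cy3, red marks arrays 1, 3, 5 and 7 and blue arrays 2, 4, 6 and 8, open symbols are not well above background, and black bars are the mean and SD of 4 rats. In every gene but Pax5 the high points are red in all 4 diets, and the diets overlap.

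The rats of an array resembled each other. On array 5, I rat 1 and CF rat 3 had Cd79b signals of 11.67 and 11.89; on array 3, CF rat 1 and C10 rat 3 had 9.73 and 10.11; and on array 7, I rat 3 and REF rat 3 had 10.76 and 11.41. On arrays 2, 4, 6 and 8 the 8 rats had Cd79b signals of 6.73 to 7.46. For Cd79b the median difference between the rats of an array was 0.30, in either direction.

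Array 1 was the exception. C10 rat 1 had a Cd79b signal of 11.53 in Cy5 and REF rat 1 had 7.99 in Cy3, a difference of 3.54. In the scanner output before correction, the dyes of array 1 differed in scale, with medians over all non-control spots of 302.5 in Cy5 and 121 in Cy3. On these scales, the median intensities of Cd79b were 4038 and 113. The high signal of a dye was therefore not repeated at like size in the other dye of that array. For all 5 genes of the shared pattern, C10 rat 1 was above REF rat 1.

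As a description, array membership accounted for 86.1 to 92.9 % of the sum of squares of the 6 genes over the 16 rats, with a median of 59.9 % over all genes tested. Diet accounted for 1.85 to 5.39 % in the 5 genes and for 45.4 % in Pax5, with a median of 17.1 % over all genes. Arrays and rats cannot be told apart, because by these codes each rat was measured once. Why the rats of an array were alike was not tested.

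**Figure D2:**
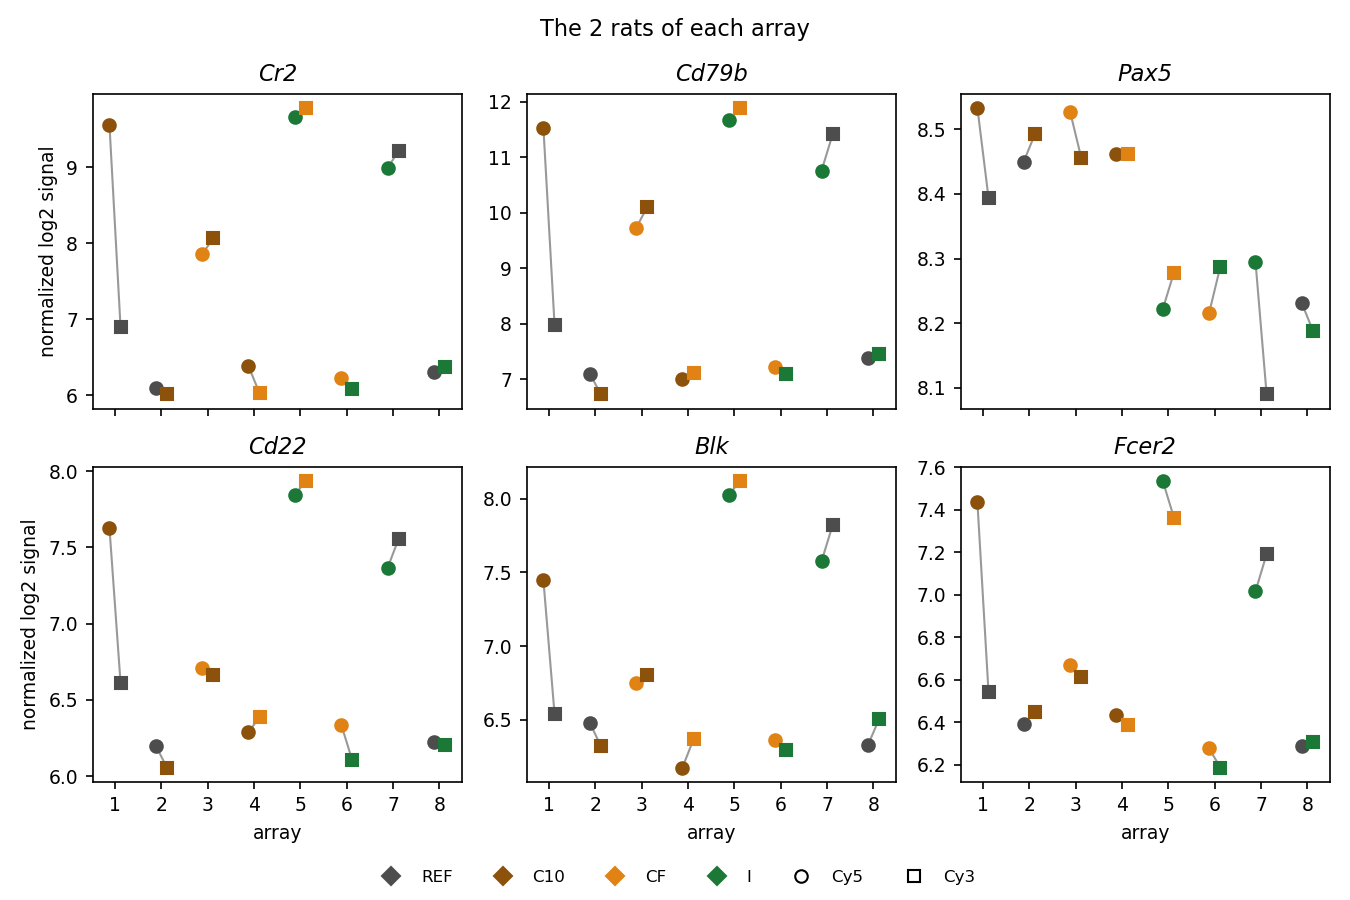
Normalized log2 signal (y axis, a separate scale per gene) of the 2 rats of each of 8 arrays (x axis), joined by a line; circles are Cy5, squares Cy3 and colours the diets. Both rats are high on arrays 3, 5 and 7 for Cr2 and Cd79b, only C10 rat 1 is high on array 1, and Pax5 is split between arrays 1 to 4 and 5 to 8.

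The correlation between the genes was tested in pairs, of which the 6 genes give 15. Since the rats fell into groups separated by the gap in Cd79b, no coefficient over all 16 rats is given for these pairs. The permutations treat rats as independent, although 6 of the 7 rats above the gap are the pairs of arrays 3, 5 and 7 and rats of an array were alike, so the p-values of these correlations do not take the shared array into account and may be too small. Over the 7 rats above the gap, all 10 pairs without Pax5 passed (Pearson's r 0.87 to 0.99, adjusted p 0.00298 to 0.025, two-sided exact permutation test, adjusted over the 15 pairs), and 9 of them passed with Spearman's rho (0.68 to 1, adjusted p 0.00595 to 0.149). Without the 2 rats farthest from the median of the first gene, r was 0.37 to 0.96, so that some of these relations rested on those rats. The split was made after the data were seen, at a gap in Cd79b, which is itself among the tested genes. The passes above the gap are therefore descriptions and not separate support for a relation between the genes.

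Over the 9 rats below the gap, 0 of the 10 pairs passed in the exact permutation test (r 0.23 to 0.87, adjusted p 0.0922 to 0.701; rho -0.08 to 0.78, adjusted p 0.258 to 0.843), with signals of most of these genes near the background. Without the 2 farthest rats r was -0.38 to 0.56. Within arrays 1 to 4 r was 0.86 to 0.99 (adjusted p 0.00174 to 0.00409; rho 0.74 to 0.95, adjusted p 0.00856 to 0.0688), and within arrays 5 to 8 it was 0.987 to 0.999 (adjusted p 0.000372 to 0.000893; rho 0.88 to 1, adjusted p 0.000744 to 0.0109), both by the exact permutation test over 8 rats; both sets hold high and low rats. Pax5 passed with 0 of the 5 other genes in any of these sets, with r from -0.75 to -0.43 above the gap and from -0.39 to 0.71 below it, and adjusted p of at least 0.0812 in the exact permutation test.

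The C10 diet was compared with REF to ask what cocoa as a whole changed. Of the 6 genes, 0 passed in limma's test at an adjusted p below 0.05, and 0 had an unadjusted p below 0.05, whereas 1.49 % of the 19899 genes passed. All 6 fitted differences were above 0, with a median of 0.19 on the log2 scale (0.01 over all genes). The differences of group means, without the fit, were -0.11 for Blk and 0.01 (Cd22) to 0.38 (Cr2) for the other genes. Because all of the genes but Pax5 varied together from rat to rat, their signs are not separate observations. Cd79b had a mean of 8.84 ± 2.36 (SD, n = 4) in C10 and 8.47 ± 1.997 in REF, and a fitted log2 difference of 0.76 (SE 1.05, 95 % interval -1.501 to 3.02, adjusted p 0.753 from limma).

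Cr2 had a log2 difference of 0.70 (SE 0.77, interval -0.95 to 2.35, adjusted p 0.682 from limma). Cd22, Blk and Fcer2 had log2 differences of 0.16 (SE 0.34), 0.08 (SE 0.35) and 0.22 (SE 0.24). The direction of these 5 genes changed when C10 rat 1, on array 1, was left out. Without C10 rat 1, the log2 difference was -0.37 for Cd79b, -0.10 for Cr2, -0.21 for Cd22, -0.26 for Blk and -0.05 for Fcer2. Blk also changed sign without REF rat 1 (-0.16) and without REF rat 4, on array 8 (-0.003).

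Pax5 differed by 0.14 (SE 0.07, interval -0.02 to 0.30, adjusted p 0.338 from limma) between C10 and REF. It was the only gene of the 6 whose C10 and REF rats did not overlap (two-sided exact permutation p 0.0286, the smallest that 4 rats against 4 can give, on the difference of group means, 0.19). Such a separation was found in 4.57 % of all genes tested. All C10 rats lay on arrays 1 to 4, where Pax5 was higher in REF and CF too; with the array set as a term of the model, the Pax5 difference was 0.07 (adjusted p 0.51 from limma).

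The CF diet was compared with REF to ask what the fiber of cocoa changed. In limma's test 0 of the 6 genes passed and 0 had an unadjusted p below 0.05, beside 0 % of all genes passing. The log2 difference was 0.59 (SE 1.15, interval -1.88 to 3.06) for Cd79b, 0.44 (SE 0.84, interval -1.37 to 2.24) for Cr2, and 0.09 to 0.24 for the other 4 genes. All 6 overlapped between CF and REF, and 1.89 % of all genes did not.

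The I diet, a soluble fiber without cocoa, gave a like result against REF, with 0 of the 6 genes passing in limma's test, 0 at an unadjusted p below 0.05, and 0 % of all genes passing. The log2 difference was 0.46 (SE 1.05, interval -1.80 to 2.72) for Cd79b, 0.42 (SE 0.77, interval -1.24 to 2.07) for Cr2, and 0.02 to 0.19 for the other 4 genes. All 6 overlapped, and 2.07 % of all genes did not. The 3 comparisons share the REF rats, of which only REF rat 3 was above the gap in Cd79b; without it the Cd79b log2 difference was 1.47 in C10, 1.51 in CF and 1.60 in I.

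**Figure D3:**
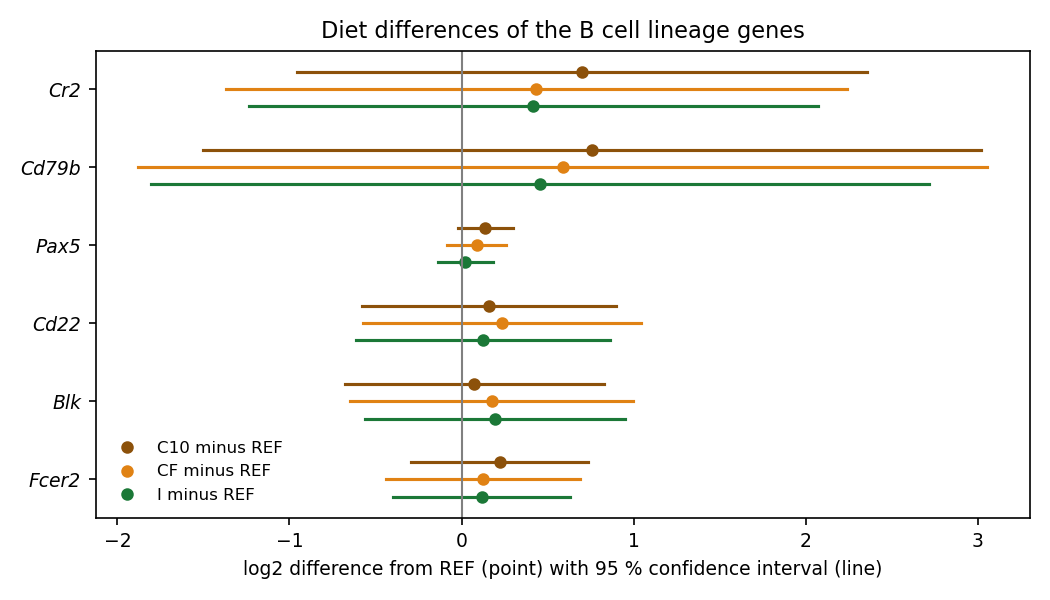
Log2 difference from REF (x axis) of 6 B cell lineage genes (y axis) for C10, CF and I, fitted with limma over 16 rats; points are estimates and lines are 95 % confidence intervals. Every interval includes 0, and the Cd79b interval for C10 reaches from -1.501 to 3.02.

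Between the experimental diets, 0 of the 6 genes passed in limma's test for C10 against CF (0.648 % of all genes), C10 against I (0.613 %) and CF against I (0 %), and 0 had an unadjusted p below 0.05 in each. For Cd79b the fitted log2 difference was 0.17 (interval -2.09 to 2.43) between C10 and CF, 0.30 (interval -2.17 to 2.77) between C10 and I, and 0.13 (interval -2.13 to 2.39) between CF and I. The differences of its group means, without the fit, had the opposite sign, at -0.15, -0.41 and -0.26. The order of these diets in Cd79b thus depended on the fit. All 6 genes overlapped for C10 against CF and for CF against I, where 3.54 % and 1 % of all genes did not. For C10 against I, Pax5 did not overlap (5.8 % of all genes did not; two-sided exact permutation p 0.0286), but these diets lay on different sets of arrays and cannot be told apart from them in a direct comparison; the fitted difference was 0.12 (SE 0.08, adjusted p 0.581 from limma). Over the 4 diets together, 0 of the 6 genes passed limma's moderated F test (adjusted p 0.671 to 0.983) and 0 had an unadjusted p below 0.05, beside 0.432 % of all genes passing.

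The other genes of the pathway were taken from lists. In 18 tested genes of the B cell lineage other than those above, the list mean ranged from 7.74 to 10.02 over the rats, and its 7 highest rats were those of Cd79b. Fcmr, the receptor for immunoglobulin M, ranged from 9.02 to 13.26. Genes of transcriptional control differed in spread. Ebf1 ranged from 6.40 to 6.96, Ikzf3 from 6.02 to 7.20, Bcl11a from 7.18 to 7.83 and Irf8 from 7.44 to 8.44. Ebf1 and the lowest Ikzf3 values lay near the background. Spib ranged from 8.81 to 12.75 and Pou2af1 from 7.38 to 12.54. Cd24, which epithelium also expresses, ranged from 15.59 to 16.99, and array accounted for 8.68 % of its sum of squares.

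The 14 tested genes of B cell receptor signalling had list means of 8.57 to 9.74, and the 6 of the germinal centre 7.88 to 9.16, both with the same 7 highest rats as Cd79b. Btk, a kinase downstream of the receptor, ranged from 6.46 to 8.12, and Ptpn6, a phosphatase recruited by Cd22, from 11.77 to 13.59. Other genes of receptor signalling varied less, such as Blnk, from 9.395 to 10.11, and Bcl10, from 12.07 to 12.79. Il21r, a cytokine receptor of germinal centre cells, ranged from 6.79 to 10.19. The 7 plasma cell genes were unlike these lists, with a mean of 8.40 to 9.82 and 2 of the 7 Cd79b rats among the highest 7.

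The T cell list and the list of follicle stroma and chemokines followed the same rats, and where in the tissue these cells lay was not measured. The 13 T cell genes had a list mean of 7.05 to 9.41 and the 7 genes of follicle stroma and chemokines 8.37 to 11.33, each with all 7 Cd79b rats as their highest. Ccl19, a chemokine of the T cell zone, ranged from 7.08 to 14.55, Cxcl13, which attracts B cells into follicles, from 6.98 to 11.50, and Cd3d, a chain of the T cell receptor complex, from 8.31 to 11.76. The 8 myeloid genes (8.49 to 9.36) shared 3 of 7, the 6 smooth muscle genes 1 of 7, the 4 posterior Hox genes 4 of 7 (list mean 6.68 to 10.51), and the 9 epithelial genes 0 of 7. The part of these other cell types in the result was not tested.

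**Figure D4:**
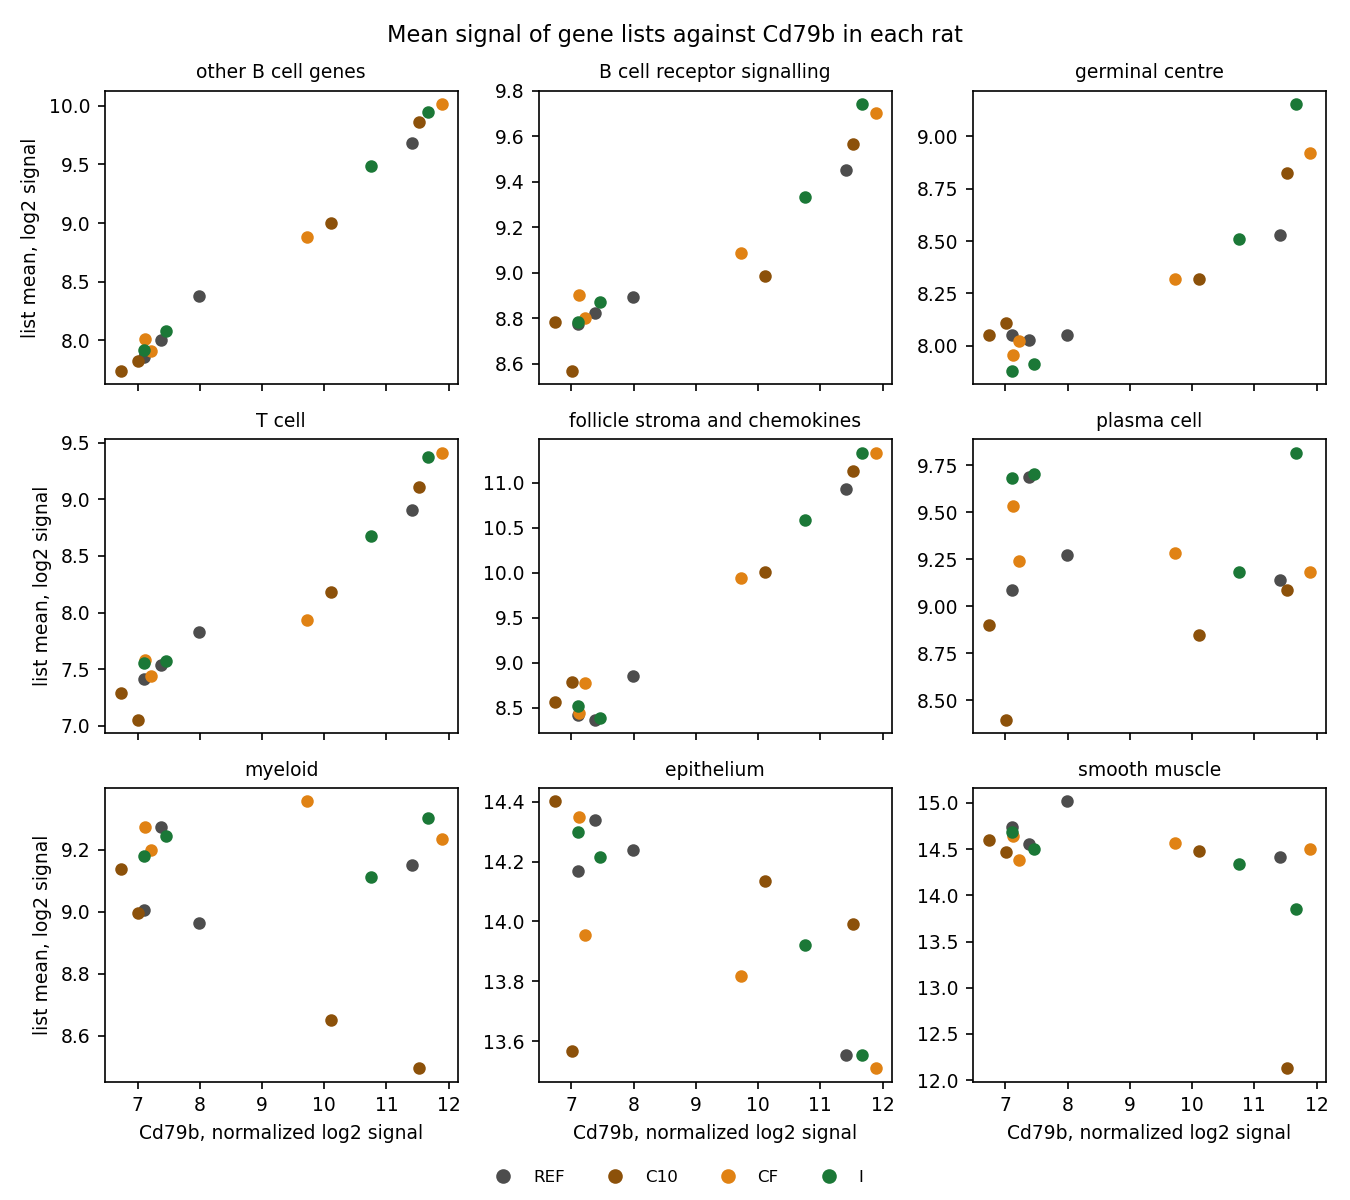
Mean log2 signal of 9 gene lists (y axis, a separate scale per list) against the log2 signal of Cd79b (x axis), 1 point per rat (n = 16), coloured by diet. The lists of other B cell genes, T cell genes and follicle stroma are highest in the 7 rats with Cd79b above 9.73, while plasma cell and myeloid genes show no such order and none of these 7 rats is among the 7 highest for epithelium.

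Of the 92 tested genes on the 10 other lists, 0 passed limma's test in C10, CF or I against REF, with lowest adjusted p of 0.0625, 0.763 and 0.667. In C10 the highest and lowest log2 differences were 0.98 (SE 0.74) for Spib and -0.12 (SE 0.13) for Cd24 among the other B cell genes (median 0.25). They were 0.30 (SE 0.27) for Prkcb and -0.16 (SE 0.14) for Pik3ap1 in receptor signalling (median 0.11), and 0.57 (SE 0.67) for Il21r and -0.03 (SE 0.24) for Mef2b in the germinal centre (median 0.16). The plasma cell list had its median at -0.29, with 0.05 (SE 0.14) for Sdc1 and -1.34 (SE 0.37, adjusted p 0.0812 from limma) for Tnfrsf17, the plasma cell survival receptor BCMA.

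In CF, the other B cell genes ranged from -0.11 (Cd24) to 0.95 (Spib), with a median log2 difference of 0.20, the receptor signalling genes from -0.13 (Bcl10) to 0.45 (Plcg2), the germinal centre genes from 0.04 (Bcl6) to 0.30 (Il21r), and the plasma cell genes from -0.19 (Xbp1) to 0.20 (Mzb1). In I, the other B cell genes ranged from -0.43 (Cd24) to 1.07 (Pou2af1), with a median of 0.28, the receptor signalling genes from -0.09 (Pik3ap1) to 0.34 (Inpp5d), the germinal centre genes from -0.12 (S1pr2) to 0.44 (Il21r), and the plasma cell genes from -0.01 (Xbp1) to 0.64 (Mzb1). None of these genes passed limma's test. Ccl19 had the highest difference of the follicle list in C10 (1.52, SE 1.52), CF (1.01, SE 1.66) and I (0.78, SE 1.52), and Tnfsf11, the lymphoid organ cytokine RANKL, the lowest (0.10, 0.08 and 0.05).

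In the T cell list, the highest difference was that of Cd247 (0.73 in C10, 0.66 in CF and 0.68 in I) and the lowest that of Cd3g (-0.24, -0.33 and -0.28). The lists of the other tissues gave extremes in C10 of 0.31 for Cd14 and -0.67 for Adgre1 (myeloid), 0.22 for Cdh1 and -0.64 for Car1 (epithelium), -0.64 for Acta2 and -1.28 for Cnn1 (smooth muscle), and 2.78 for Hoxb13 and 0.14 for Hoxd12 (posterior Hox). For CF they were 0.31 for Csf1r and -0.03 for Itgam, 0.09 for Slc26a3 and -0.44 for Car1, -0.25 for Myh11 and -0.64 for Actg2, and 1.76 for Hoxb13 and 0.02 for Hoxd12. For I they were 0.24 for Aif1 and -0.13 for Cd14, 0.36 for Slc26a3 and -0.18 for Krt18, -0.28 for Acta2 and -0.54 for Actg2, and 1.10 for Hoxb13 and -0.05 for Hoxd12. None of these passed limma's test either.

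Between experimental diets, the list genes that passed were lower in C10. They were 2 of 92 against CF, beside 0.648 % of all genes, and 2 of 92 against I, beside 0.613 %. The macrophage genes Aif1 and Adgre1 fell by 0.84 (SE 0.15, adjusted p 0.0254 from limma) and 0.83 (SE 0.17, adjusted p 0.0449) on the log2 scale against CF. Against I, Aif1 was lower by 0.82 (SE 0.16, adjusted p 0.0417 from limma), and Derl3, a gene of protein quality control in plasma cells, by 1.28 (SE 0.23, adjusted p 0.0274). The C10 and I rats lay on different sets of arrays, so that diet and array set cannot be told apart in a direct comparison. None of these is a B cell receptor or follicle gene, and the lists were not tested as sets.

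The 10 genes that correlated most with the mean of the 6 genes over the 16 rats were Cnr2 (r = 0.999), Vpreb3, Sit1, Gpr18, Cd27, Pde6h, Il21r, Arl5c, Rhoh and Ltb (r = 0.990). The genes were not scaled in this mean. Cd79b and Cr2, with SDs within a diet of 2.24 and 1.66, thus weighed most in it, and Pax5 (SD 0.114) least. These correlations are across rats that fall into separate groups and are given as descriptions. Cnr2, the cannabinoid receptor of immune cells, ranged from 6.46 to 9.10, Cd27, a receptor of lymphocyte costimulation, from 6.28 to 10.02, and Ltb, a cytokine of lymphoid tissue, from 9.15 to 12.92. Of 11915 other genes with a symbol, 141 had r above 0.95, 280 above 0.9 and 3 below -0.9. Between the rats of an array, where arrays cancel, the differences of the 10 genes correlated with those of the member mean at r from 0.970 to 0.995 over 8 arrays, of which array 1 had by far the largest difference.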

How the data were processed

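Per the labels, Agilent Feature Extraction 10.7.3.1 made the scanner files. The authors deposited, for both dyes, median spot intensities and local backgrounds that had not been normalized; the processed intensities of the same files entered 1 alternative. A deposited table of the series was not used, as none of its 8 columns was named like a label.

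With limma 3.58.1 in R 4.3.3 (statmod 1.5.0), intensities were corrected with normexp (offset 50), normalized by spatial (span 0.4) and intensity-dependent loess (span 0.3), and by Aquantile between arrays. Control and outlier spots (604 to 896 outliers per array) were left out and the spots of a probe averaged. Probes well above background in at least 4 of 16 rats were kept (22541), and a gene was read from its brightest probe. Transcripts were named through RefSeq (GRCr8) for 18005 probes. The array number limits the precision.

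Diet and dye were fitted with the array as a block (correlation 0.475), with all diets sharing the spread and Benjamini-Hochberg adjustment over 19899 genes at 0.05. P-values measure the spread between rats; the labels name no other batch than the array. Exact permutation tests used 4 rats against 4. Correlations used permutations (exact below 10 rats) in Python 3.11.15 (scipy 1.17.1). Rank product, the study's test, was not run here, since its null permutes across genes.

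The genes, the lists and the tests were chosen with earlier results of these data known. Named genes were every member, the tested gene of each list with the highest and the lowest difference against REF, all list genes that passed, and the 10 genes most like the member mean; the other list genes given for their range were chosen after their values were seen. Alternatives were other background corrections, normalizations, filters and models, and leaving out each rat; the set without array 1 and the split at the Cd79b gap were chosen after seeing the data.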

Additional observations from a re-analysis of the deposited data

Results flagged for a closer look

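In REF, Blk stood out in rat 3, on array 7. Its log2 signal there was 7.82, against 6.32 to 6.54 in the other 3 REF rats, a gap that is large for 4 values. It was the only 1 of 24 groups (6 genes in 4 diets) to be marked in this way, and chance marks about 1 in 20 groups. The same rat was the highest REF rat for Cr2 (9.22), Cd79b (11.41), Cd22 (7.56) and Fcer2 (7.19).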

How the results depend on the processing

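In limma's test 0 of the 6 genes passed in any comparison and under any alternative (lowest adjusted p 0.24). Intervals as wide as those of Cd79b leave moderate diet differences undetectable with 4 rats per diet. For C10 against REF, the Cr2 log2 difference of 0.70 was 1.15 without the normexp offset and 2.15 with processed intensities. Log2 differences from REF changed sign as follows, and the cause was not tested. Without the array block, Blk in C10 was -0.11 and Pax5 in I was -0.043. With the array set as a term, Cd22 in I was -0.017. Without both rats of array 1, a set chosen after seeing the data, C10 gave -0.355 for Blk, -0.24 for Cd22, -0.585 for Cd79b, -0.20 for Cr2 and -0.077 for Fcer2, and CF gave -0.049 for Blk, -0.06 for Cd79b and -0.006 for Fcer2. With a single rat left out, C10 ranged from -0.26 to 0.32 for Blk, -0.21 to 0.38 for Cd22, -0.37 to 1.54 for Cd79b, -0.10 to 1.22 for Cr2 and -0.054 to 0.39 for Fcer2, with the lowest values without C10 rat 1. CF ranged from -0.11 to 0.49 for Blk, -0.023 to 0.53 for Cd22, -0.12 to 1.51 for Cd79b, -0.15 to 1.10 for Cr2 and -0.019 to 0.34 for Fcer2, with the lowest values without CF rat 3. I ranged from -0.023 to 0.49 for Cd22, -0.014 to 0.39 for Fcer2 and -0.058 to 0.055 for Pax5. In the log-ratios within arrays, which pair the rats of an array, 0 of the 6 genes passed (lowest adjusted p 0.382 for C10 against REF), with log2 differences of 1.19 for Cd79b and 1.06 for Cr2 in C10; the labels give no replicate number that pairs rats otherwise. Of the 15 gene pairs, 10 passed the correlation test when all rats were pooled across the Cd79b gap, and also in residuals of diet and dye, without the offset, with processed intensities, within both sets of arrays and above the gap, and 0 passed below it. Apart from the sets above and below the gap, all these settings mix high and low rats. Their passes follow the same gap and are not separate support for a relation between the genes. Passes in the set above the gap are no such support either, since that set was split on Cd79b after the data were seen.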
